A study of Mus musculus with 8 samples.

Results

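The HtrA serine proteases are a family of 4 mouse genes, Htra1, Htra2, Htra3 and Htra4, and all 4 were measured among 19938 genes in hepatic stellate cells from mice with deleted Lhx2 and from control mice. The members were taken by gene symbol from the array's annotation, and the family was chosen because its members were higher in the knockout. The comparison of knockout with control therefore picked these genes, and their differences are given as a description without a test. The data go against that description for Htra4, which had almost the same level in both groups.

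The knockout group held 4 arrays, replicates 5 to 8, of stellate cells from Mx1Cre+ mice with floxed Lhx2. The control group held 4 arrays, replicates 1 to 4, from mice with floxed Lhx2 and no Mx1Cre. Both groups had a C57BL/6J background, received poly(I:C) 3 times and gave cells 2 weeks later. Poly(I:C) is a double-stranded RNA that induces interferon, and the Mx1 promoter that drives Cre answers to interferon in many cell types, so this Cre is not specific to stellate cells; deletion in other cells was not measured. Cre was present in the knockout group alone, so what follows from the lost gene and what follows from Cre cannot be told apart. Cells were sorted by the autofluorescence of their retinoids, so the sort was aimed at retinoid-storing cells in both groups, although hepatocyte and endothelial transcripts were also measured, at levels given with the cell type markers. The age of the mice is not given in the sources used here. Whether the arrays stand for separate animals is not stated in the labels, and the p-values then cover array-to-array spread that could be technical.

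HtrA proteases are relatives of a bacterial heat-shock protease, carry a trypsin-like catalytic domain followed by a PDZ domain, and work as oligomers without ATP. HtrA1, HtrA3 and HtrA4 are secreted and have an N-terminal part that resembles insulin-like growth factor binding proteins and Kazal-type inhibitors. HtrA2 lies between the mitochondrial membranes instead. Secreted HtrA1 degrades matrix proteins and dampens TGF-beta family signalling, and stellate cells are the main matrix-producing cells of the injured liver.

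Values are log2 levels from Affymetrix Mouse Gene ST arrays, 1 per gene and array, on which a difference of 1 is a doubling. Levels of different genes come from different probes and are not set against each other. Array medians lay between 7.419 and 7.475, and over all probe sets the arrays correlated at 0.993 to 0.996 among knockouts, 0.987 to 0.996 among controls and 0.984 to 0.991 between the groups (Pearson). As a guide to unexpressed levels, 1194 olfactory and vomeronasal receptor genes had a median of 5.40 and a 95th percentile of 6.77. Lhx2, the deleted LIM homeobox gene, had levels of 11.09, 11.24, 11.35 and 11.49 in the knockout arrays, against 12.07, 11.88, 11.94 and 11.92 in the control arrays. The difference was -0.66 (SE 0.09), so much of the Lhx2 signal remained in the knockout arrays. The floxed part is not given in the labels, so the probes for Lhx2 may lie partly outside it. How completely the gene was deleted in the sorted cells was not tested.

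Htra1 encodes a secreted protease of connective tissue whose loss in humans causes a hereditary disease of small brain vessels. Its levels were 12.16, 12.17, 12.16 and 11.94 in the knockout arrays, against 9.19, 8.95, 9.27 and 9.35 in the control arrays. The groups lay far apart, with 2.59 between the lowest knockout and the highest control array. The mean was 12.11 ± 0.11 in the knockout group and 9.19 ± 0.17 in the control group (SD, n = 4 each). The difference of 2.92 (SE 0.09) is a 7.55-fold higher level and ranked 9 among the differences of the 19938 genes, counted from the highest. In such bulk samples, more cells with the transcript and more transcript per cell cannot be told apart. Of 14 portal fibroblast markers, 5 were called higher in the knockout, beside 3.76% of all genes. The mean log2 level over the list was 8.55 to 8.72 in the knockout arrays and 7.89 to 8.0 in the control arrays. Its defining markers Thy1, Entpd2 and Pi16 had differences of -0.10, -0.29 and -0.01. The part of these markers in the Htra1 and Htra3 values was not tested.

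Htra3 encodes a second secreted member, first described in the placenta as a pregnancy-related protease. Its levels were 12.31, 12.06, 12.22 and 11.98 in the knockout arrays, against 10.40, 10.17, 10.40 and 10.34 in the control arrays. All knockout arrays lay above all control arrays, by at least 1.58. The mean was 12.14 ± 0.15 in the knockout group and 10.32 ± 0.11 in the control group (SD, n = 4 each), a difference of 1.82 (SE 0.09) or 3.52-fold. It ranked 32 among the differences of all genes.

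Promoter windows were matched by symbol for 2 of the 4 members, Htra1 and Htra3, and both are shown. The levels of the genes played no part in this choice, and no window was matched for Htra2 or Htra4. The matching left out windows on a chromosome that holds none of the 4 genes. Each runs from 250 bases before to 50 bases after the annotated start, 5′ to 3′ on the strand of the gene, from RefSeq on build GRCm38.p6. Capitals mark a match to any of the motifs TAATTA and TAATTG (core sites of LIM homeodomain factors), CAGACA (a SMAD-box type site), GGGCGG (the GC box) and TATAAA (the TATA box), searched on both strands. No matches overlapped. The Htra1 window is chr7:130935953-130936252 on the plus strand and the Htra3 window chr5:35679731-35680030 on the minus strand.
Htra1: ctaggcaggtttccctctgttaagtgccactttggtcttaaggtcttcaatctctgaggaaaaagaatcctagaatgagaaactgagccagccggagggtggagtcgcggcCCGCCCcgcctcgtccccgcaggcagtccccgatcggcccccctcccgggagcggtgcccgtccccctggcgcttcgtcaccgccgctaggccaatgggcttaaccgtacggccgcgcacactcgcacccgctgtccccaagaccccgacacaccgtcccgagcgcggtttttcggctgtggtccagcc
Htra3: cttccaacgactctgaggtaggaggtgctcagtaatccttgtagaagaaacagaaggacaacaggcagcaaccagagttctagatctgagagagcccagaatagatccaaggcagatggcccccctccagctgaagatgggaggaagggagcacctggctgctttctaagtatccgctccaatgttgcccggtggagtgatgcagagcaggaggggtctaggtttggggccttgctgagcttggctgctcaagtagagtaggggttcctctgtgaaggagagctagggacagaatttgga

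The windows shared none of these motifs. The Htra1 window held 1 match, a GC box on the minus strand that begins 139 bases before the start, and the Htra3 window held none. Among 32851 promoter windows of the same length, 35.7% held GGGCGG, 5.29% TAATTA, 8% TAATTG, 21% CAGACA and 13.6% TATAAA. The share of G and C was 65.0% in the Htra1 window and 53.7% in the Htra3 window, beside a median of 52.7% over all windows. A missing match says only that these letters are not in the window.

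Htra2 encodes the mitochondrial member, also called Omi, which guards protein quality between the mitochondrial membranes and, once released into the cytosol, binds inhibitor of apoptosis proteins. Its levels were 10.67, 10.63, 10.68 and 10.59 in the knockout arrays, against 10.06, 10.15, 10.37 and 10.39 in the control arrays. The groups did not overlap, but the gap between the lowest knockout and the highest control array was only 0.205. The mean was 10.64 ± 0.04 in the knockout group and 10.24 ± 0.16 in the control group (SD, n = 4 each), and the difference of 0.40 (SE 0.08) or 1.32-fold ranked 534. In the RefSeq annotation Htra2 on chromosome 6 overlaps its neighbours Loxl3, a lysyl oxidase, and Aup1, a lipid droplet and endoplasmic reticulum protein. Both had differences of the opposite sign that did not pass the test, -0.19 (SE 0.05, limma adjusted p = 0.0598) for Loxl3 and -0.14 (SE 0.06, limma adjusted p = 0.251) for Aup1.

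Htra4 encodes the third secreted member, known mainly from human placenta. Its levels were 8.27, 8.27, 8.26 and 8.20 in the knockout arrays, against 8.34, 8.35, 8.09 and 8.11 in the control arrays. The knockout arrays lay inside the range of the control arrays. The mean was 8.25 ± 0.03 in the knockout group and 8.22 ± 0.14 in the control group (SD, n = 4 each), with a difference of 0.03 (SE 0.07). Its mean level was exceeded by 5 of the 1194 receptor genes, and those of the other members by 0.

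**Figure D1:**
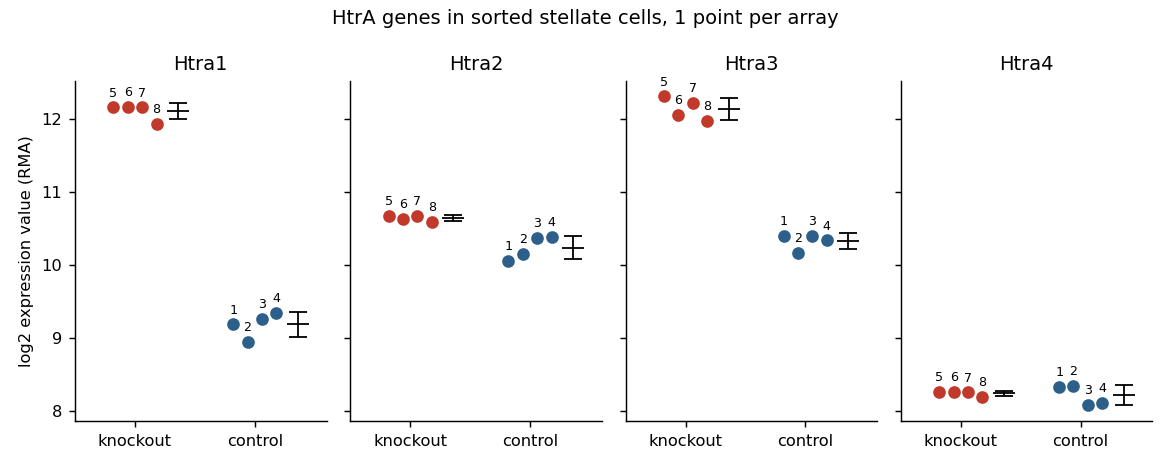
Log2 expression value (y axis) of each HtrA gene in the 4 knockout and the 4 control arrays, numbered by replicate; the bar beside each group is the mean ± SD. Htra1, Htra3 and, by a smaller margin, Htra2 lie higher in all knockout arrays, and Htra4 overlaps; heights are not comparable between genes.

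Thus 3 of the 4 members lay higher in every knockout array than in any control array. The same held for 6.38% of all genes, but since the comparison chose the family nothing is read from this count. The sizes were unequal, from 0.03 for Htra4 to 2.92 for Htra1, and the median difference of all genes was -0.017. The 2 genes with the largest differences encode secreted proteases, and so does Htra4, the gene with the smallest.

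**Figure D2:**
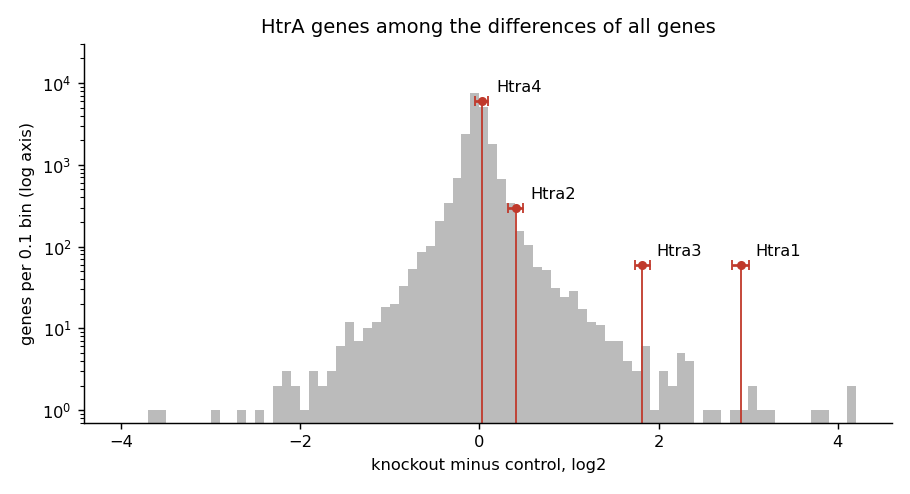
Number of genes per 0.1 bin (y axis, log scale) by knockout minus control difference in log2 (x axis) for 19938 genes, with red markers at the 4 HtrA genes and bars of ± 1 SE; the height of a marker carries no value. Htra1 at 2.92 and Htra3 at 1.82 lie in the right tail, Htra2 at 0.40 on its shoulder and Htra4 at 0.03 in the centre.

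The members also varied within the groups, and these values too are a description. Knockout 8 was the lowest knockout array for each of the 4 genes, by -0.17 from the group mean for Htra1, -0.05 for Htra2, -0.161 for Htra3 and -0.05 for Htra4. Control 2 was the lowest control array for Htra1 (-0.238) and Htra3 (-0.155). Htra2 and Htra4 split the control arrays in opposite ways: control 1 and control 2 were low for Htra2 (-0.182 and -0.092) and high for Htra4 (0.12 and 0.129), and control 3 and control 4 the reverse. With the group means removed, Htra1 and Htra3 differed by a root mean square of 0.094 over the 8 arrays, Htra1 and Htra2 by 0.0983, and Htra1 and Htra4 by 0.19. The value was 0.127 for Htra2 and Htra3, 0.155 for Htra3 and Htra4, and 0.187 for Htra2 and Htra4. Whether other gene pairs lie as close was not tested. Control arrays spread more than knockout arrays for Htra1, Htra2 and Htra4 and less for Htra3. The SD of Htra2 was 0.04 in the knockout group and 0.16 in the control group, where the medians over all genes were 0.094 and 0.109.

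The genes whose pattern over the 8 arrays was nearest to Htra1 were Fbln1, C7, Pcsk6, Pi15 and Cd34. Likeness was the root mean square difference after each gene was centred on its own mean, so a small value needs a like size as well as a like order. Fbln1, which encodes the matrix protein fibulin-1, was nearest at 0.22, followed by C7, a subunit of the complement membrane attack complex, at 0.25, Pcsk6, a proprotein convertase, at 0.262, Pi15, a secreted protein of the CAP family, at 0.287, and Cd34, a surface sialomucin, at 0.303. Fbln1 had levels of 11.77, 11.49, 11.79 and 11.43 in the knockout arrays, against 8.26, 8.35, 8.56 and 8.33 in the control arrays, a difference of 3.25 (SE 0.10). Pi15 and Cd34 followed Htra1 less closely within the groups. Pi15 was 10.02 in knockout 6 and 8.92 in knockout 8, and Cd34 was 7.23 in control 1 and 8.42 in control 4. Cd34 is itself among the portal fibroblast markers called higher, and the part of those markers was not tested.

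The genes nearest to Htra3 lay closer to it, in a measure that leaves fewer candidates for a gene with a larger difference. They were Abca8a, an ABC transporter, at 0.144, Crispld2, a secreted CAP-domain protein, at 0.146, Slc43a1, an amino acid transporter, at 0.174, Scube1, a secreted and surface glycoprotein, at 0.174, and Gpx3, the secreted glutathione peroxidase, at 0.178. Abca8a had levels of 11.61, 11.62, 11.55 and 11.43 in the knockout arrays, against 9.60, 9.77, 9.87 and 9.98 in the control arrays, a difference of 1.75 (SE 0.08). Crispld2 differed by 1.87 (SE 0.11), Gpx3 by 1.74 (SE 0.12), Scube1 by 1.58 (SE 0.08) and Slc43a1 by 1.54 (SE 0.08). These genes were picked by likeness to a gene chosen for its difference, and the values are a description.

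**Figure D3:**
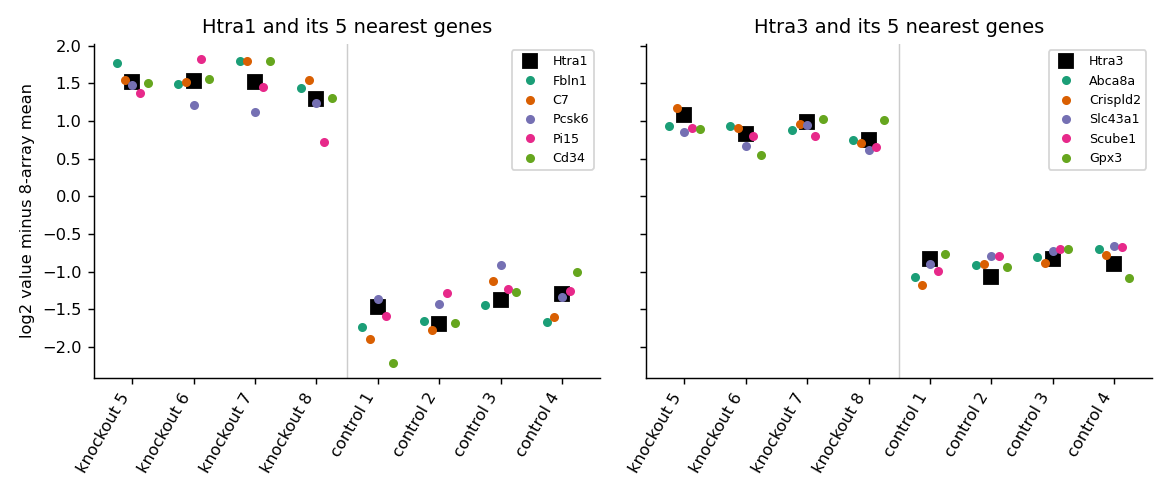
Log2 value minus the gene's mean over 8 arrays (y axis) by array (x axis) for Htra1 (left) and Htra3 (right), drawn as black squares, and the 5 nearest genes of each as coloured points. The points lie around the squares in both groups, more tightly for Htra3 (root mean square 0.144 to 0.178) than for Htra1 (0.22 to 0.303).

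The genes next to Htra1 and Htra3 on the chromosomes had differences between -0.37 and 0.30; these neighbours were chosen after the members' values were seen. Beside Htra1 on chromosome 7, Plekha1, a phosphoinositide-binding adaptor, differed by 0.21 (SE 0.08, limma adjusted p = 0.211) and Dmbt1, a scavenger receptor, by -0.05 (SE 0.08, limma adjusted p = 0.882). Beside Htra3 on chromosome 5, Acox3, a peroxisomal oxidase, rose by 0.30 (SE 0.07, limma adjusted p = 0.0216), and Sh3tc1 differed by -0.37 (SE 0.10, limma adjusted p = 0.051). The call of Acox3 was lost without control 1, control 2, control 4, knockout 6 or knockout 7, with an adjusted p of up to 0.0709. Of the 16 nearest measured genes, 2 on each side of each member, Acox3 rose, 2 fell and 13 did not pass, beside 7.38% of all genes called. The falls were of Dqx1 near Htra2 (-0.30, SE 0.07), lost without control 4 or any one knockout array (adjusted p up to 0.0822), and of Tacc1 near Htra4 (-0.24, SE 0.05), lost without any one array except control 1 and control 2 (adjusted p up to 0.089).

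Genes whose proteins are reported as substrates of HtrA1, mostly from work with human protein, moved in both directions at the transcript level. Protein levels and cleavage were not measured. Of 19 genes, all measured, 4 rose, 2 fell and 13 did not pass, and the median difference was 0.03, beside -0.017 for all genes. Over all genes 3.76% passed as higher and 3.63% as lower. Fmod, fibromodulin, a small leucine-rich proteoglycan that binds collagen, had levels of 8.79, 8.77, 9.17 and 8.59 in the knockout arrays, against 7.51, 7.45, 7.56 and 7.32 in the control arrays. It rose by 1.37 (SE 0.11, limma adjusted p = 8.05e-05), and no knockout array overlapped the controls. Eln, elastin, rose by 0.81 (SE 0.10, limma adjusted p = 0.0012), Thbs1, thrombospondin-1, an activator of latent TGF-beta, by 0.70 (SE 0.13, limma adjusted p = 0.0119), and Fbln5, fibulin-5, which organises elastic fibres, by 0.61 (SE 0.06, limma adjusted p = 0.000323).

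The falls were of Clu and Efemp1. Clu, the extracellular chaperone clusterin, had levels of 10.68, 10.40, 10.85 and 10.79 in the knockout arrays, against 12.24, 12.17, 12.27 and 12.26 in the control arrays, and fell by 1.55 (SE 0.09, limma adjusted p = 8.47e-06). Efemp1, fibulin-3, fell by 0.74 (SE 0.06, limma adjusted p = 0.000108). Fn1, fibronectin, and Dcn and Bgn, the proteoglycans decorin and biglycan, were named after their values were seen. Their differences of 0.03 (SE 0.05), -0.12 (SE 0.05) and 0.08 (SE 0.05) did not pass. Their knockout means were 13.46, 13.89 and 13.85, and the highest value on any array was 14.42. The normalization compresses differences of very bright probe sets, so a small difference here is a weak reading. The largest difference among the rest that did not pass was that of Jag1, a Notch ligand, at -0.19 (SE 0.05, limma adjusted p = 0.0651). Without control 1 and control 4 together, Thbs1 had an adjusted p of 0.0901. Eln is itself among the 5 portal fibroblast markers called higher, and the part of those markers was not tested.

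Transcripts of TGF-beta family ligands that HtrA1 or HtrA3 are reported to bind or inhibit also went both ways. Among the 6, 2 rose, 1 fell and 3 missed the threshold, with a median difference of -0.16 (all genes: 3.76% higher, 3.63% lower). Bmp4, a bone morphogenetic protein, had levels of 12.65, 12.51, 12.70 and 12.72 in the knockout arrays, against 12.13, 11.98, 11.91 and 11.80 in the control arrays, a rise of 0.69 (SE 0.08, limma adjusted p = 0.000571). Inhba, the activin A subunit, was 10.62, 10.97, 11.09 and 11.00 in the knockout arrays, against 10.47, 10.29, 10.24 and 10.26 in the control arrays, and rose by 0.61 (SE 0.10, limma adjusted p = 0.00551). Tgfb2 was 7.93, 7.62, 8.25 and 7.62 in the knockout arrays, against 9.05, 8.87, 8.99 and 8.64 in the control arrays, and fell by 1.03 (SE 0.15, limma adjusted p = 0.00232). All 3 genes separated the groups completely. Tgfb1 missed the threshold at -0.27 (SE 0.07, limma adjusted p = 0.0523) and passed as lower without knockout 7 (-0.33, adjusted p = 0.022).

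Genes that share the N-terminal domain types of the secreted HtrA proteases were called at a share near that of all genes. Of 29 genes with an IGFBP-type, Kazal or follistatin-type domain, 2 rose, 1 fell and 26 did not pass, beside 7.38% called of all genes, and the median difference was -0.024. Smoc2, a matricellular protein with a follistatin-type domain, had levels of 12.47, 12.62, 12.44 and 12.41 in the knockout arrays, against 10.87, 11.15, 11.17 and 11.15 in the control arrays. It rose by 1.40 (SE 0.08, limma adjusted p = 8.05e-06), and Sparcl1, a matricellular relative of SPARC, by 0.33 (SE 0.05, limma adjusted p = 0.00239). Ccn4, a CCN family protein and Wnt target, fell by 0.81 (SE 0.15, limma adjusted p = 0.00928), a call that was lost without control 1 and control 4 (-0.55, adjusted p = 0.0512). Kazald1, which has both domain types, differed by 0.42 (SE 0.15, limma adjusted p = 0.174). Without knockout 5 the number that fell was 2, since Ccn2, named after its value was seen, then passed (-0.43, adjusted p = 0.0476).

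Other serine proteases of the trypsin fold were called no more often than all genes. Of 21 measured of 22 listed, 1 rose, 0 fell and 20 did not pass in the limma fit (4 had an unadjusted p under 0.05), beside 7.38% called of all genes, with a median difference of 0.002. Plat, tissue plasminogen activator, had levels of 9.05, 8.90, 9.52 and 9.27 in the knockout arrays, against 7.74, 8.18, 8.12 and 8.42 in the control arrays, and rose by 1.07 (SE 0.16, limma adjusted p = 0.00315). C1s1, a protease of the first complement component, differed by 0.23 (SE 0.06, limma adjusted p = 0.0671) and passed without knockout 5 (0.27, adjusted p = 0.0445), which made 2 genes that rose. C1s1 has a close copy in the mouse genome, so its level is uncertain.

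Of 17 serpins measured of 19 listed, which are mostly inhibitors of serine proteases, 0 rose, 1 fell and 16 did not pass in the limma fit (1 had an unadjusted p under 0.05), again near the 7.38% of all genes. The median difference was -0.005. Serpini1, neuroserpin, which inhibits tissue plasminogen activator, had levels of 7.30, 7.38, 7.39 and 7.07 in the knockout arrays, against 7.65, 7.71, 7.82 and 7.72 in the control arrays, and fell by 0.44 (SE 0.08, limma adjusted p = 0.00821). Without control 1 and control 4 its adjusted p was 0.0515. Serpina3n, a liver-derived inhibitor with several close copies whose level is uncertain, differed by 0.34 (SE 0.30, limma adjusted p = 0.705), and its highest array, knockout 7 at 10.10, also had the highest hepatocyte marker mean of the knockout group.

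Mitochondrial proteases and their chaperones, the surroundings of HtrA2, mostly did not pass. Of 20 measured of 22 listed, 1 rose, 0 fell and 19 did not pass in the limma fit (3 had an unadjusted p under 0.05), near the 3.76% of all genes called higher, with a median difference of 0.06. Hspa9, the mitochondrial chaperone mortalin, was 11.14, 11.17, 11.03 and 11.08 in the knockout arrays, against 10.80, 10.81, 10.93 and 10.93 in the control arrays, and rose by 0.24 (SE 0.06, limma adjusted p = 0.0345). That call was lost without control 1, control 2, control 4, knockout 5, knockout 6 or knockout 8, each left out singly, at an adjusted p of up to 0.114. Hspe1, the small subunit of the mitochondrial chaperonin, differed by 0.34 (SE 0.12, limma adjusted p = 0.178). The mean level of the 20 genes was 9.79 to 9.87 in the knockout arrays and 9.65 to 9.87 in the control arrays.

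Of 15 genes of the inhibitor of apoptosis proteins, their mitochondrial antagonists, the apoptosome and the Bcl2 family, measured of 19 listed, 0 rose, 2 fell and 13 did not pass in the limma fit (3 had an unadjusted p under 0.05), beside 3.63% of all genes called lower, and the median difference was -0.05. Bcl2, which restrains release of mitochondrial proteins, was 11.58, 11.38, 11.50 and 11.58 in the knockout arrays, against 12.35, 12.11, 12.09 and 12.07 in the control arrays, and fell by 0.65 (SE 0.08, limma adjusted p = 0.000777). Septin4, whose isoform ARTS binds XIAP, fell by 0.23 (SE 0.05, limma adjusted p = 0.029), a call lost without any one array except control 4 (adjusted p up to 0.0951). Xiap itself, named after its value was seen, differed by -0.07 (SE 0.09), and Birc2, the cellular inhibitor of apoptosis with the largest difference that did not pass, by 0.26 (SE 0.21, limma adjusted p = 0.67).

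**Figure D4:**
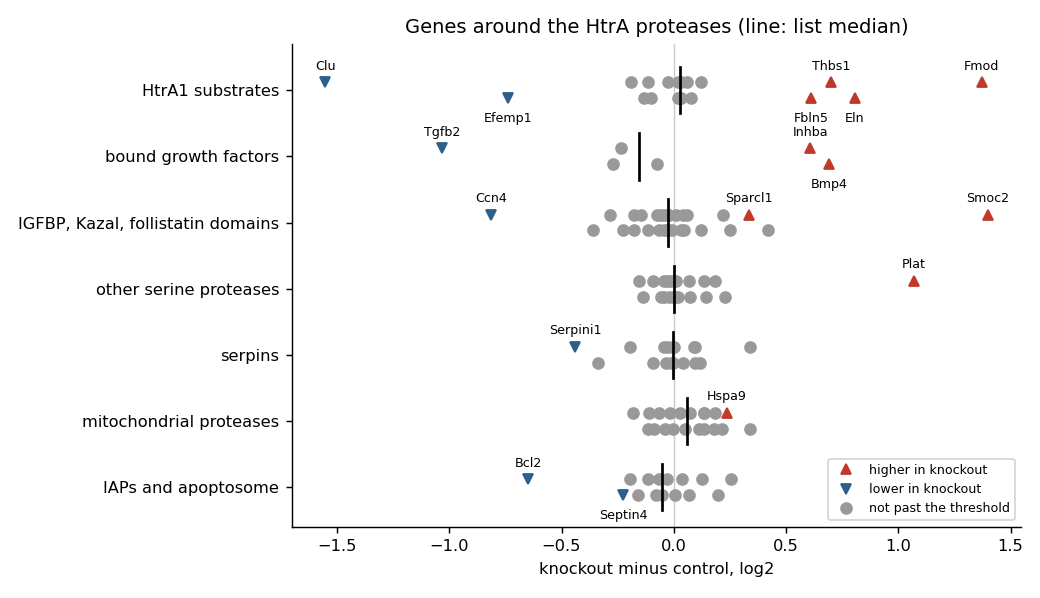
Knockout minus control difference in log2 (x axis) of each measured gene in 7 lists (rows), with triangles for genes past a limma adjusted p of 0.05 and a black line at the list median. Calls in both directions appear among the substrates, the bound growth factors and the IGFBP, Kazal and follistatin domain genes, and 1 or 2 calls in each of the lists of other serine proteases, serpins, mitochondrial proteases and apoptosis genes.

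Markers of the sorted cells and of other cell types were read in the same arrays. Of the defining stellate cell markers, Lrat, the retinol-esterifying enzyme, averaged 13.75 ± 0.03 in the knockout group and 13.65 ± 0.15 in the control group, and Des, desmin, 12.50 ± 0.07 in the knockout group and 12.42 ± 0.10 in the control group (SD, n = 4 each). Reln, reelin, fell by 0.26 (SE 0.05, limma adjusted p = 0.0114). Without control 1 and control 4 the adjusted p was 0.056 for Reln, 0.0601 for Hgf and 0.0527 for Hand2. Of 11 stellate markers measured, 0 rose and 4 fell (6 had an unadjusted p under 0.05; 3.63% of all genes were called lower), Reln among them with Gfap (-1.48), Hand2 (-0.48) and Hgf (-0.37), and the mean over the list was 12.64 to 12.67 in the knockout arrays and 12.88 to 12.96 in the control arrays.

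Of 14 portal fibroblast markers, 5 rose, 0 fell and 9 did not pass, beside 3.76% of all genes called higher. The risen markers were Cd34 (3.08), Dpep1 (2.37), Dpt (2.28), Eln (0.81) and Mfap4 (0.39), named, like the other markers called, after their values were seen. Of their defining markers, Pi16 averaged 6.80 ± 0.05 in the knockout group and 6.81 ± 0.11 in the control group, close to the receptor genes' 95th percentile of 6.77, and Thy1 7.41 ± 0.13 in the knockout group and 7.51 ± 0.15 in the control group (SD, n = 4 each). Entpd2, the third, averaged 8.52 ± 0.25 in the knockout group and 8.81 ± 0.14 in the control group (SD, n = 4 each), and none of these 3 markers passed the test. Of 10 smooth muscle markers, 1 rose, 3 fell and 6 did not pass, beside 3.76% of all genes called higher and 3.63% lower. Tagln rose (0.77), and Mcam (-1.09), Rgs5 (-0.52) and Smtn (-0.36) fell. Myh11, Cnn1 and Acta2 differed by -0.01, -0.04 and -0.24 and did not pass.

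The mean levels over the hepatocyte and the endothelial markers varied widely within each group, and their ranges overlapped between the groups. The hepatocyte mean over 10 markers, including Alb, Cps1 and Apob with differences of 0.04, 0.39 and 0.11, was 9.41 to 10.91 in the knockout arrays and 8.97 to 11.12 in the control arrays, with 0 genes called (1 had an unadjusted p under 0.05). The endothelial mean over 12 markers was 8.39 to 9.65 in the knockout arrays and 8.35 to 10.90 in the control arrays. All 12 differences were negative, with a median of -0.55, beside -0.017 for all genes. Clec4g fell by 1.23, a call lost without control 2 or knockout 5 (adjusted p up to 0.058). Pecam1, Cdh5 and Stab2 had differences of -0.47, -0.32 and -0.36 that did not pass. Control 1 had the highest hepatocyte mean and control 4 the highest endothelial mean. Without both arrays the differences were 3.00 for Htra1, 0.39 for Htra2, 1.86 for Htra3 and 0.03 for Htra4. Control 2, with an endothelial mean of 10.39, and control 3, with a hepatocyte mean of 10.77, stayed in. The part of the hepatocyte and endothelial markers in the members' differences was not tested. The macrophage mean over 12 markers was 7.47 to 8.02 in the knockout arrays and 7.48 to 8.40 in the control arrays, and Cd68 fell by 0.61, a call lost without control 1, control 2, control 3, knockout 6 or knockout 7 (adjusted p up to 0.0852). Adgre1 averaged 6.81 in the knockout group and 6.73 in the control group, and Csf1r 7.91 in the knockout group and 7.66 in the control group. Clec4f averaged 7.09 in the knockout group and 7.53 in the control group, without overlap of the groups (-0.45, SE 0.12, limma adjusted p = 0.0517). It passed as lower without control 1 and control 4 (-0.6, limma adjusted p = 0.04). Cholangiocyte and lymphoid markers had 0 calls (0 with an unadjusted p under 0.05), and the mean levels of Krt19, Epcam, Cd79a and Nkg7 lay below the receptor genes' 95th percentile, those of Krt7 and Cd3e above it.

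**Figure D5:**
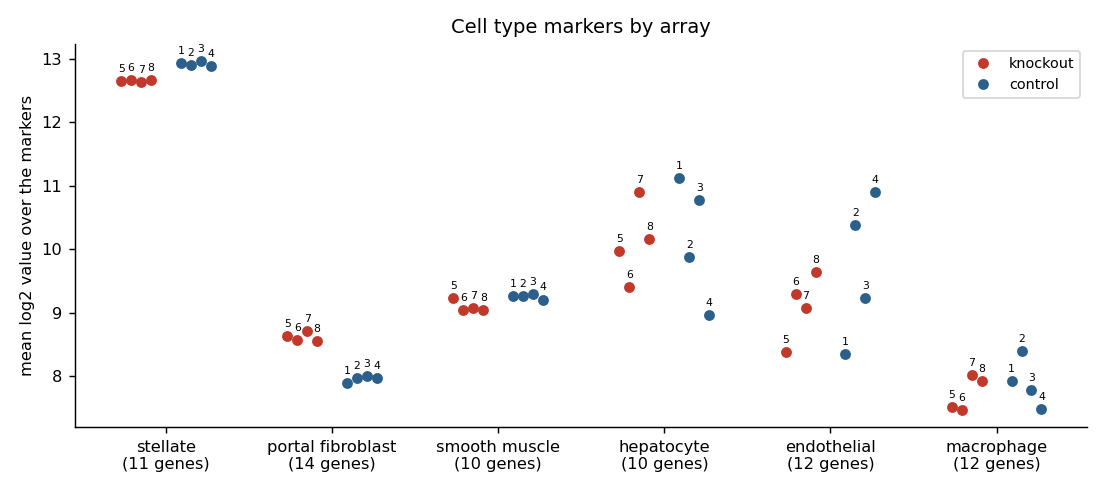
Mean log2 value over the markers of a cell type (y axis) in each knockout and control array, numbered by replicate, for 6 cell types (x axis). The mean over the stellate list is lower and that over the portal fibroblast list higher in all knockout arrays. Most markers of either list did not pass the test. The means over the hepatocyte, endothelial and macrophage lists overlap between the groups.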

How the data were processed

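The file held deposited log2 expression values of 35556 probe sets on 8 arrays, which the authors normalized with the Robust Multichip Algorithm (RMA), per the labels' protocols (RMA is also in the submitters' processing notes), from 150 ng RNA each. RMA compresses differences of dim and very bright probe sets. No RMA version, scan date or batch is given in the sources used here, and no batch was tested. The number of arrays limits the precision.

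Of the probe sets, 21789 had 1 gene symbol in the platform annotation, 1621 had several and were left out, and 12146 were unnamed here. The probe set with the highest mean stood for each of 19938 genes, and each HtrA gene had 1 probe set. Groups came from the sample titles. Knockout minus control was fitted with lmFit and eBayes in limma 3.58.1 (R 4.3.3), as a two-sided test at a threshold of 0.05, with p-values adjusted by Benjamini-Hochberg across all genes and no filter. The fit was tested on simulated data.

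The members and the gene and marker lists were chosen with earlier results of these data known. Up to 4 called genes per list and direction, and the uncalled gene with the largest difference, were named, with 3 defining markers per cell type and, for members spanning over 1, the 5 nearest genes without predicted ones. Alternatives covered scaling, a filter, the variance model, probe sets, thresholds and left-out arrays.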

Additional observations from a re-analysis of the deposited data

Results flagged for a closer look

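In 198 checks of 1 gene in 1 group of 4 arrays, 13 had an array whose gap to the nearest array was too large a part of the group's range by Dixon's test at 95%, where chance gives about 1 in 20. Htra1 was among them: knockout 8 stood at 11.94, below the other knockout arrays (nearest 12.16) and far above the controls. In control 1, Smoc2 was low at 10.87 (nearest 11.15), Pi15 low at 6.61 (nearest 6.92), Plekha1 low at 8.24 (nearest 8.52), Masp1 low at 13.42 (nearest 13.52) and Bcl2 high at 12.35 (nearest 12.11). In knockout 7, Kazald1 was high at 9.25 (nearest 8.93), C7 at 12.15 (nearest 11.89) and Mfap4 at 8.06 (nearest 7.94). Sparcl1 was high at 13.52 in knockout 6 (nearest 13.42), Acox3 high at 9.83 in control 3 (nearest 9.67), Gfap low at 9.32 in control 2 (nearest 9.49) and Cd68 low at 10.07 in control 4 (nearest 10.49).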

How the results depend on the processing

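The differences of the 4 HtrA genes moved by less than 1 SD of the arrays under each of the 16 alternatives run on them, from 2.84 to 3.00 for Htra1, 0.34 to 0.45 for Htra2, 1.76 to 1.87 for Htra3 and -0.02 to 0.07 for Htra4, so the sign of Htra4 is not settled. No named gene called in the comparison turned its direction. No paired analysis was possible because the groups share no replicate numbers. Over all genes, 749 rose and 723 fell. These counts were 371 and 405 without control 1 and control 4, 386 and 389 at an adjusted p under 0.01, and 284 and 239 with at least a 1.5-fold difference. Leaving out 1 array gave 502 to 790 rises and 487 to 677 falls. Of the bound growth factors, 2 fell with quantile normalization, without dim genes, with eBayes with a trend and robust fitting and with every probe set on its own (Tgfb1 added), 3 with array weights (Tgfb1 and Bmp2 added), and 1 to 2 with 1 array left out. Of the IGFBP and Kazal domain genes, 2 fell with the trend fit, array weights and every probe set on its own (Reck added), 0 without control 1 and control 4, and 1 to 2 with 1 array left out, and 1 rose at 1.5-fold. Of other serine proteases, 2 rose with the trend fit and with array weights (C1s1 added), 1 to 2 rose with 1 array left out, and 1 fell with the trend fit (Masp1; like Bmp2 and Reck, named after its value was seen). Of the serpins, 0 fell without control 1 and control 4 and at 1.5-fold. Of the mitochondrial genes, 0 rose without control 1 and control 4, at an adjusted p under 0.01 and at 1.5-fold, and 0 to 1 with 1 array left out. Of the apoptosis genes, 1 fell in those same 3 settings and 1 to 2 with 1 array left out. Stricter thresholds and fewer arrays lower counts by construction, and for the other changes the cause was not tested. Low signal limits the dim genes, since RMA compresses their differences.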
